A study of Mus musculus with 14 samples.

Results

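The genes described here build the MHC class I molecule and load it with peptide: the heavy chains H2-K1, H2-D1, H2-T23 and H2-M3, the light chain B2m, the peptide transporter Tap1 and Tap2, the loading proteins Tapbp and Calr, and the regulator Nlrc5. They were chosen by name and are 10 of the 21205 genes of a table of unique molecular identifier (UMI) counts from 555 single cells. The cells were sorted as type 1 conventional dendritic cells (cDC1) from melanomas that grew after YUMM1.7 cells, a mouse melanoma line, were injected subcutaneously into female mice. There are 14 samples, each 1 plate of cells from 1 tumour of 1 mouse, and the plate is the replicate throughout. Irf1_dXCR1 held 5 plates with 223 cells and its control Irf1_FF 4 plates with 165 cells, all of experiment M3 and of mice aged 6 weeks. Ikbkb_dXCR1 held 4 plates with 133 cells, 2 from mice aged 6 weeks and 2 from mice aged 8 weeks, and its control Ikbkb_FF held 1 plate with 34 cells from a mouse aged 8 weeks, all of experiment M2. IRF1 is a transcription factor that interferons induce, and Ikbkb encodes IKKβ, a kinase that switches on canonical NF-κB signalling. The labels name neither the Cre driver nor the deleted exons. Cells were taken apart by their own transcripts. Ccr7+ cells had at least 1 UMI of Ccr7, the chemokine receptor of migrating mature dendritic cells (170 cells). Xcr1+ Ccr7- cells had at least 1 UMI of Xcr1, a chemokine receptor of cDC1, and none of Ccr7 (149 cells). The other 236 cells had neither transcript.

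A class I molecule is a heavy chain that spans the membrane, paired with β2-microglobulin (B2m) and holding a short peptide. Proteasomes cut peptides in the cytosol, the TAP1-TAP2 pump carries them into the endoplasmic reticulum, and tapasin (Tapbp), calreticulin (Calr) and the thiol oxidoreductase ERp57 (Pdia3) hold the empty molecule beside the pump until a peptide fits. H2-K1 and H2-D1 are the classical heavy chains shown to CD8+ T cells. H2-T23 encodes Qa-1b, which is seen by NK cell receptors, and H2-M3 presents formylated peptides. NLRC5 is a class I transactivator that works through the conserved promoter elements of these genes, where IRF and NF-κB proteins are also known to bind. cDC1 are known for placing antigen taken up from other cells on class I.

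The plates held 18 to 59 cells and 2810321 to 10120557 UMIs. No cell name occurred on more than 1 plate. Ccr7+ cells had a median of 132930 UMIs and 1388 genes, against 187354 UMIs and 2099 genes in Xcr1+ Ccr7- cells, while the median of spike-in UMIs was 6726 and 6628. Of the Ccr7+ cells 27 also had an Xcr1 UMI, and 36 had only 1 to 9 Ccr7 UMIs. The summed level of 9 cDC1 markers, Xcr1 among them, ran from 1417 to 4337 CPM (UMIs per 1000000 UMIs of a plate's cells) in Ccr7+ cells and from 4734 to 7322 CPM in Xcr1+ Ccr7- cells. That of 8 mature dendritic cell markers, Ccr7 among them, ran from 3878 to 12411 CPM and from 0.864 to 412 CPM. Xcr1 and Ccr7 chose the cells, so part of these differences was set by the choice. The mature marker Il4i1 was at 0 in Ccr7+ cells of Irf1_FF, Ikbkb_dXCR1 and Ikbkb_FF. Xcr1, Clec9a and Tlr3 were at 0 in the Ccr7+ cells of the Ikbkb_FF plate, so the labelled cell type rests there on the other 6 markers. The NK cell genes Ncr1, Klrb1c and Prf1 were at 0 in both states in every group, while Klrk1 was present. The 7 T cell markers summed to between 0 and 757 CPM in Ccr7+ cells and between 0 and 575 CPM in Xcr1+ Ccr7- cells. In the Ccr7+ cells of the Ikbkb_FF plate they summed to 745 CPM, with Cd3e, Trbc2, Cd8a and Cd4 at 0. No fit left out cells with T cell UMIs, and the part of such cells was not tested. Irf1 itself had 223 ± 105 CPM over all cells of Irf1_dXCR1 plates (SD, n = 5) and 343 ± 102 CPM in Irf1_FF plates (n = 4), which gave a log2 difference of -0.59 ± 0.38 by edgeR, with its SE (adjusted p = 0.685). Ikbkb had 236 ± 70.7 CPM in Ikbkb_dXCR1 plates (n = 4) and 300.1 CPM in the Ikbkb_FF plate (log2 fold change -0.28 ± 0.58, adjusted p = 1). Within the states Ikbkb ran both ways. In Ccr7+ cells it had 7.49 to 449 CPM in Ikbkb_dXCR1 plates and 470 CPM in the Ikbkb_FF plate. In Xcr1+ Ccr7- cells it had 166 to 303 CPM in Ikbkb_dXCR1 plates and 157 CPM in the Ikbkb_FF plate. Neither all-cell difference passed, and whether the deleted exons lie in the 5′ ends that were read is not given in the sources used here, so the genotype labels are not tested by these levels.

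The promoters of the light chain and the 4 heavy chains are shown because NF-κB and IRF proteins are the subject of the study and these genes hold matches to their motifs. RefSeq (GRCm38.p6) gave a promoter, from 250 bases before to 50 bases after the start, for 8 of the 10 genes, with 2 starts for H2-K1; Tap2 and Nlrc5 are named only. The stretches below run from 10 bases before the first to 10 bases after the last match upstream of the RefSeq start, 5′ to 3′ on the gene's strand, and the matches are in capitals.
H2-K1 (chr17:34000374-34000468, minus strand): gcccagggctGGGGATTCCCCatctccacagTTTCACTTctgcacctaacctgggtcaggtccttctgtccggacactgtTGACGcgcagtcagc
H2-D1 (chr17:35262913-35263007, plus strand): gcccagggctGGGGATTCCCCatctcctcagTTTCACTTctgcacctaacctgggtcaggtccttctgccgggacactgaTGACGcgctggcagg
B2m (chr2:122147538-122147623, plus strand): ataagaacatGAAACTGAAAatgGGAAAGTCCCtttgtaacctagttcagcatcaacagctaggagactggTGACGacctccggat
H2-M3 (chr17:37270098-37270202, plus strand): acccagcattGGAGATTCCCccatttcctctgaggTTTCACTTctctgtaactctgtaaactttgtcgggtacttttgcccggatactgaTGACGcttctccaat
H2-T23 (chr17:36032765-36032835, minus strand): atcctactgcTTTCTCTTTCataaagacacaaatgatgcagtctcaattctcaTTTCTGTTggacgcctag
The motifs were chosen after the sequences were seen and were searched on both strands: the NF-κB consensus site, the short interferon response element AANNGAAA, its doubled form GAAANNGAAA, which overlaps it, and TGACG, the core of the CRE-like element. The H2-K1, H2-D1 and H2-M3 stretches carry an NF-κB match, then TTTCACTT, which is AANNGAAA read on the other strand, then TGACG. B2m carries the same 3 motifs with the interferon element first and in the doubled form, and a further TGACG, read on the other strand, downstream of its start. H2-T23 has matches to the 2 interferon motifs alone, Tap1 to TGACG alone, Calr to NF-κB and AANNGAAA, and Tapbp to none in this window. Over the same 95 bases H2-K1 and H2-D1 were identical at 88 positions (92.6%). Among 32851 mouse promoters of this length, 8.46% held the NF-κB motif, 23.9% AANNGAAA, 3.44% GAAANNGAAA, 20.8% TGACG, and 0.286% the NF-κB motif, AANNGAAA and TGACG together. These are letter matches and show no binding. The starts used are those of RefSeq, while the gene spans that follow are from GENCODE and can begin further upstream. By those spans the H2-D1 and H2-T23 stretches lie inside the gene. The Tapbp window (chr17:33919228-33919527) does too, so it does not cover the GENCODE start of Tapbp. On GRCm38 the genes lie as follows: H2-K1 at chr17:33996017-34000347 (minus strand), H2-D1 at chr17:35262730-35267499 (plus strand), H2-T23 at chr17:36029773-36032855 (minus strand), H2-M3 at chr17:37270220-37274484 (plus strand), Tap1 at chr17:34187553-34197225 (plus strand), Tap2 at chr17:34203527-34216321 (plus strand) and Tapbp at chr17:33915899-33929292 (plus strand) in the MHC of chromosome 17, B2m at chr2:122147686-122153083 (plus strand), Nlrc5 at chr8:94434356-94527272 (plus strand) and Calr at chr8:84841850-84846934 (minus strand).

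In all cells together the order of the genes was steep and nearly the same in every plate. Since each transcript gives 1 tag at its 5′ end, gene length does not enter these levels. B2m was highest at 3917 ± 528 CPM (SD, n = 14 plates), followed by H2-D1 at 2557 ± 323 CPM and H2-K1 at 1729 ± 263 CPM, and these 3 stood in that order in 14 of 14 plates. H2-T23 came next at 771 ± 162 CPM and was above Tap1, at 607 ± 139.8 CPM, in 12 of 14 plates. Tap1 was above Tapbp (449 ± 118 CPM) in 14 of 14 plates. Below them Tapbp was above H2-M3 (297 ± 81.4 CPM) in 11, H2-M3 above Calr (238 ± 88.7 CPM) in 10, Calr above Tap2 (129.7 ± 53.0 CPM) in 12, and Tap2 above Nlrc5 (98.8 ± 44.2 CPM) in 11 of 14 plates. H2-M3 and Calr, and likewise Tap2 and Nlrc5, differed by less than the SD of either gene. Summed over the 10 genes the level was 10794 ± 1099 CPM, which is 1.08% of all UMIs, with plates between 9288 and 13174 CPM.

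B2m was so abundant that its counts approached the highest number the UMIs can give. UMIs of 5 bases have a limited number of sequences, so a gene's count in a cell has a ceiling (the number of different UMIs). If each different UMI marks 1 transcript, a count near the ceiling understates the transcripts. The median of all non-zero counts in the series was 64, and whether errors in UMI reads added to the counts was not tested. Counts of 922 or more, 90% of the ceiling, were 60 of the 547 non-zero B2m counts (11%, exact binomial 95% interval 8.48 to 13.9%), 8 of 506 for H2-D1 (1.58%) and 1 of 487 for H2-K1 (0.205%). The other 7 genes had no count near the ceiling, and the highest of theirs was 565, for Tap1. Over the 10 genes 69 of 3507 non-zero counts (1.97%) were near it. Ccr7+ cells had more B2m counts near the ceiling, 27 of 169 (16%, interval 10.8 to 22.4%), against 9 of 148 in Xcr1+ Ccr7- cells (6.08%, 2.82 to 11.2%). Within Ccr7+ cells the share was 5 of 67 (7.46%, 2.47 to 16.6%) in Irf1_dXCR1, 10 of 48 (20.8%, 10.5 to 35.0%) in Irf1_FF, 10 of 46 (21.7%, 10.9 to 36.4%) in Ikbkb_dXCR1 and 2 of 8 (25.0%, 3.19 to 65.1%) in Ikbkb_FF. These intervals cover counting error only, since cells of a plate are not independent. Collisions hide transcripts if all UMIs are used equally and each marks 1 transcript. Corrected for them, the summed B2m count would be 114% higher in Ccr7+ cells and 85.6% higher in Xcr1+ Ccr7- cells. For H2-D1 that correction adds 68.6% and 62.3%, for H2-K1 41.8% and 32.6%, and for each of the other genes 4.65 to 16.5% in Ccr7+ cells.

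**Figure D1:**
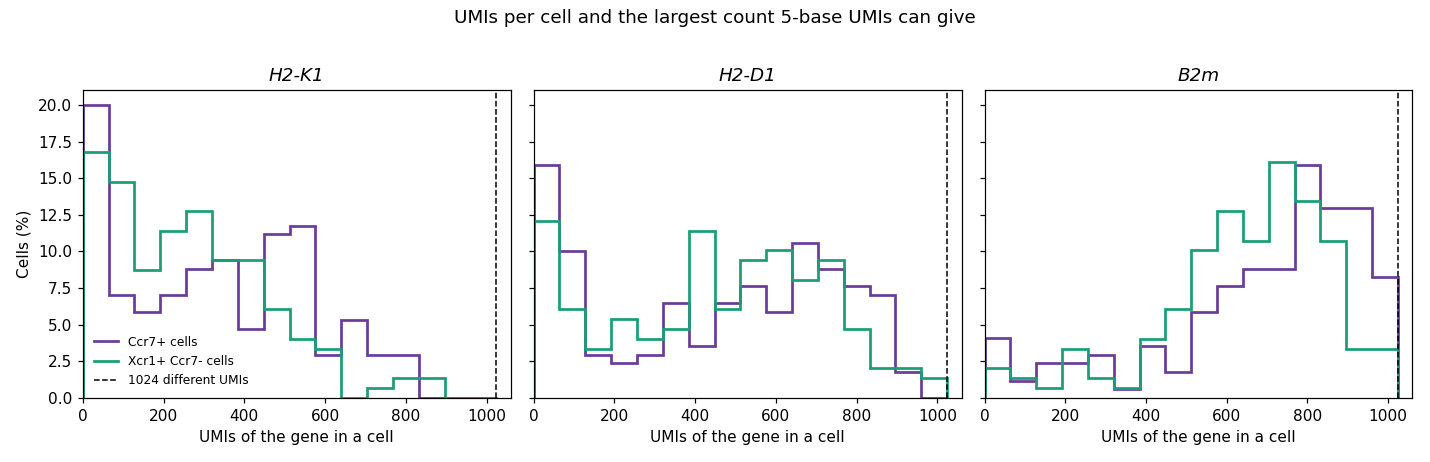
Share of cells (%) by the number of UMIs of H2-K1, H2-D1 and B2m in the cell, for Ccr7+ cells (purple) and Xcr1+ Ccr7- cells (green), with the number of different UMIs as a dashed line. B2m counts of Ccr7+ cells pile up toward the line, where 27 of 169 non-zero counts reach 922 or more, while H2-K1 has 1 such count among all 487.

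Ccr7+ cells had higher shares of H2-K1, H2-D1 and B2m transcripts than Xcr1+ Ccr7- cells of the same tumour. The comparison used the 11 plates with at least 5 cells of each state, with UMIs summed per plate and state and the plate as a block. Of the 13508 genes tested, edgeR's quasi-likelihood test called 181 higher (1.34%) and 43 lower (0.318%) in Ccr7+ cells at an adjusted p under 0.05, together 1.66%. This balance depended on the scaling, the test and the mark of a positive cell: 97 higher and 220 lower with spike-in scaling, 197 higher and 15 lower with upper-quartile factors, 700 higher and 1161 lower with DESeq2, 260 higher and 946 lower with limma-trend on equally weighted cells, and 212 higher and 188 lower where 10 UMIs were needed to mark a positive cell. Of the 10 class I genes edgeR called 3 higher and 0 lower. Their median log2 fold change was 0.43, against -0.33 over all genes tested. The states were split by Ccr7 and Xcr1, so no test of these 2 genes is reported. Both stayed in the fit, and Ccr7 is 1 of the 181 genes called higher.

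Among the heavy chains, H2-K1 had a lowest, median and highest plate value of 1776, 2181 and 3089 CPM in Ccr7+ cells and of 913, 1235 and 1767 CPM in Xcr1+ Ccr7- cells. It was higher in Ccr7+ cells in 11 of 11 plates and the states did not overlap (log2 fold change 0.97 ± 0.13, SE; adjusted p = 5.60e-05). H2-D1 had 2519.5, 3228 and 5045 CPM in Ccr7+ cells and 1821, 2304 and 2457 CPM in Xcr1+ Ccr7- cells. It too was higher in 11 of 11 plates with no overlap (0.65 ± 0.10, adjusted p = 1.36e-04). Such separation was found for 59 of all genes tested (0.437%). H2-T23 averaged 898 ± 256 CPM in Ccr7+ cells and 693 ± 157 CPM in Xcr1+ Ccr7- cells (SD, n = 11), and its fold change of 0.48 ± 0.19 did not pass (adjusted p = 0.354). H2-M3 averaged 238 ± 141 CPM in Ccr7+ cells and 326 ± 109 CPM in Xcr1+ Ccr7- cells, with the Ccr7+ value above the other in 2 of 11 plates (-0.54 ± 0.61, adjusted p = 0.763).

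B2m, the light chain shared by all these heavy chains, had a lowest, median and highest value of 3082, 4630.5 and 8698 CPM in Ccr7+ cells and 2471, 3143 and 3579 CPM in Xcr1+ Ccr7- cells. It was higher in Ccr7+ cells in 10 of 11 plates, the exception being Ikbkb_dXCR1 replicate 1 with 5 Ccr7+ cells (0.74 ± 0.10, adjusted p = 3.82e-05). With counts corrected for UMI collisions the B2m fold change was 0.89, and that of H2-K1 and H2-D1 1.03 and 0.66, and all 3 were called again. The cells with neither transcript were not part of this test. In their 14 plates H2-K1 ran from 1164 to 2855 CPM, H2-D1 from 1771 to 3704 CPM and B2m from 3085 to 6042 CPM. These ranges reach above those of Xcr1+ Ccr7- cells, so the higher shares are not shown to be particular to Ccr7+ cells.

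None of the transporter and loading genes was called in either direction by edgeR. Tap1 averaged 676 ± 305 CPM in Ccr7+ cells and 678 ± 208 CPM in Xcr1+ Ccr7- cells (0.07 ± 0.23, adjusted p = 0.950), higher in 5 of 11 plates. Tap2 averaged 143 ± 69.6 CPM and 171 ± 124 CPM in the same order (0.00 ± 0.60), again higher in 5 of 11. Tapbp averaged 561 ± 196 CPM in Ccr7+ cells and 451 ± 95.3 CPM in Xcr1+ Ccr7- cells, higher in 9 of 11 plates (0.38 ± 0.29, adjusted p = 0.727). Calr averaged 179 ± 118 CPM in Ccr7+ cells and 262 ± 114 CPM in Xcr1+ Ccr7- cells, higher in 2 of 11 plates (-0.66 ± 0.62, adjusted p = 0.761). With each cell weighted equally instead of by its UMIs, limma-trend called Calr lower in Ccr7+ cells (-1.36, adjusted p = 0.00418). Nlrc5, the regulator, averaged 126 ± 87.6 CPM in Ccr7+ cells and 76.4 ± 35.2 CPM in Xcr1+ Ccr7- cells, a fold change of 0.80 ± 1.20 whose error is larger than itself (adjusted p = 0.805).

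**Figure D2:**
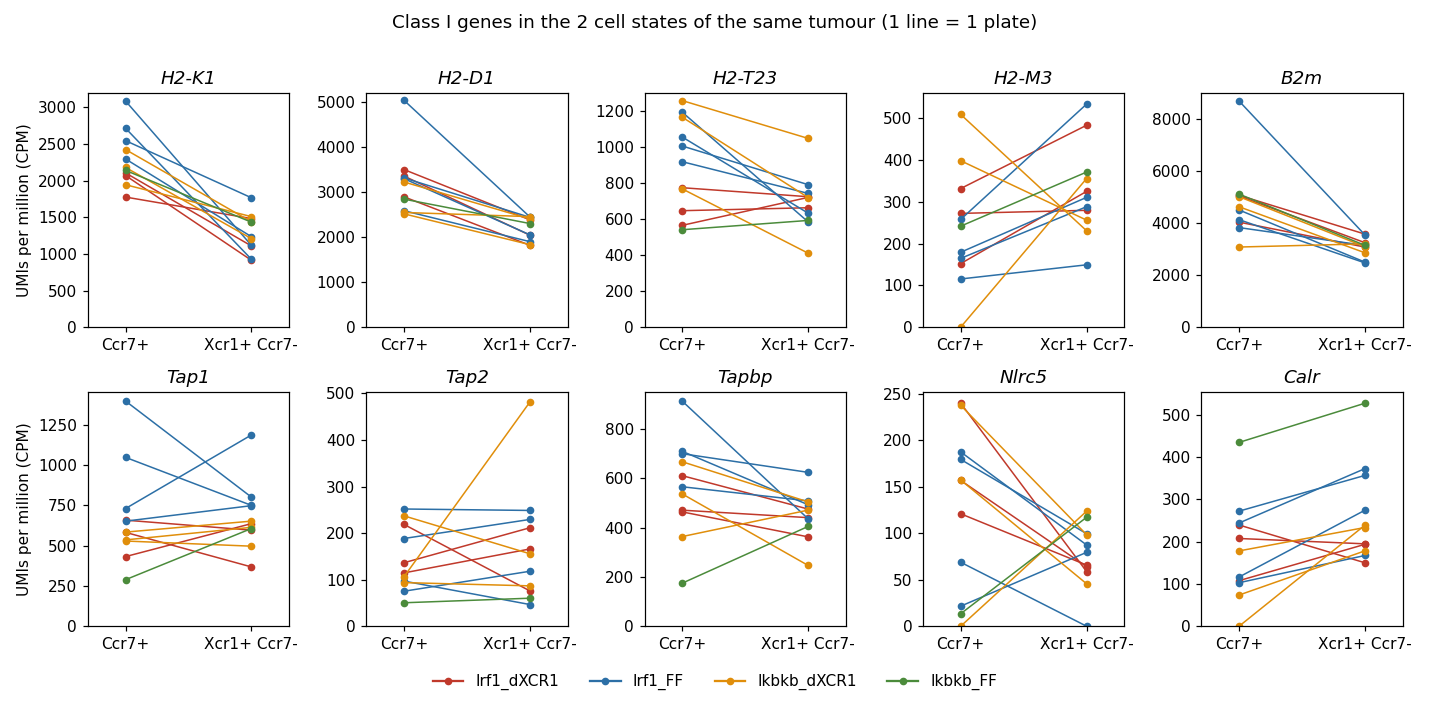
CPM of each class I gene in Ccr7+ cells (left) and Xcr1+ Ccr7- cells (right), with 1 line for each of the 11 plates, coloured by genotype. Every H2-K1 and H2-D1 line falls to the right, as does each B2m line except 1, while the lines of the other genes cross.

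These shares are relative to all transcripts of the cells, and Ccr7+ cells had fewer of them. Per cell, H2-K1 averaged 334 UMIs in Ccr7+ cells and 276 in Xcr1+ Ccr7- cells, higher in 8 of 11 plates. H2-D1 averaged 458 and 467 UMIs per cell in Ccr7+ and Xcr1+ Ccr7- cells, and B2m 675 and 653, higher in 5 and 6 of 11 plates. These counts are compressed by the UMI ceiling, more so in Ccr7+ cells. Under the assumptions of the correction for collisions, the B2m count averaged 1465 ± 261 per cell in Ccr7+ cells and 1254 ± 164 in Xcr1+ Ccr7- cells (SD, n = 11), higher in 8 of 11 plates. In the same way H2-D1 averaged 774 ± 187 and 780.2 ± 186, higher in 5, and H2-K1 473 ± 142 and 374 ± 145, higher in 7. When the plate sums were scaled to spike-in UMIs, an alternative chosen after seeing the data, the median of all genes moved to -0.81 and none of the 3 was called. H2-K1 then stood at 0.34 (adjusted p = 0.149), H2-D1 at 0.02 (0.953) and B2m at 0.10 (0.469), all 3 above that median. The spike-in fit used counts that were not corrected for collisions. Calr averaged 25.4 UMIs per cell in Ccr7+ cells and 55.7 in Xcr1+ Ccr7- cells, and H2-M3 35.6 and 69.9.

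The share of cells with at least 1 UMI was lower in Ccr7+ cells for the less abundant genes except Nlrc5. B2m was found in 99.4% of Ccr7+ cells and 99.3% of Xcr1+ Ccr7- cells, and H2-K1 in 90.6% and 93.3%. Calr was found in 27.6% of Ccr7+ cells (exact binomial interval 21.1 to 35.0%) and 58.4% of Xcr1+ Ccr7- cells (50.0 to 66.4%). Tap1 was found in 64.1% of Ccr7+ cells (56.4 to 71.3%) and 83.2% of Xcr1+ Ccr7- cells (76.2 to 88.8%), beside plate means of CPM that lay within 1 SD of each other. H2-M3 was found in 36.5% of Ccr7+ cells and 51.7% of Xcr1+ Ccr7- cells. After every cell was thinned to 20000 UMIs, which left out 7 Ccr7+ cells and 0 Xcr1+ Ccr7- cells, the shares were 27.6% and 56.4% for Calr, 64.4% and 81.9% for Tap1, and 35.6% and 51.0% for H2-M3. Plates were pooled for these shares, and they carry no test.

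Other genes of the pathway moved in both directions. Of 24 further class I pathway genes 22 were tested, and 3 were higher and 2 lower in Ccr7+ cells, with a median log2 fold change of 0.40. Over all genes tested 1.34% were higher and 0.318% lower, together 1.66%, which is the background for the other lists here too. Several of the calls named here lie close to the threshold, and they were not followed through the alternative fits. Psme2, a subunit of the proteasome activator PA28, rose to 2912 ± 747 CPM in Ccr7+ cells, against 1466 ± 171 CPM in Xcr1+ Ccr7- cells (1.08 ± 0.12, adjusted p = 2.20e-06). H2-Q6, a nonclassical heavy chain that shares 5′ sequence with H2-K1, rose to 417 ± 151 CPM, against 134 ± 113 CPM (adjusted p = 0.0385), and Cd1d1, the lipid-presenting molecule, to 158 ± 114 CPM, against 18.6 ± 27.4 CPM (adjusted p = 0.0399). Pdia3, which encodes ERp57 of the loading complex, fell to 552 ± 203 CPM in Ccr7+ cells, against 1052 ± 339 CPM in Xcr1+ Ccr7- cells (-0.86 ± 0.21, adjusted p = 0.0305). Wdfy4, which cDC1 need for cross-presentation in mice and which is also on the cDC1 marker list, fell to 267 ± 179 CPM, against 708 ± 163 CPM (adjusted p = 0.0240). Of 13 transcription regulators of class I genes 12 were tested and 1 was called, Irf1, which over plates of all 4 genotypes rose to 513 ± 194 CPM in Ccr7+ cells, against 157 ± 121 CPM (2.20 ± 0.58, adjusted p = 0.0483). The 9 other chaperones of the endoplasmic reticulum all had fold changes below 0, with a median of -1.12 against -0.33 over all genes, and 1 of them, the disulfide isomerase Pdia6, was called (330.0 ± 146 CPM in Ccr7+ cells, 704 ± 179 CPM in Xcr1+ Ccr7- cells; adjusted p = 0.0333).

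With limma-trend and cells weighted equally, H2-K1 (0.71) and H2-D1 (0.36) were not called and B2m was (0.58). H2-K1 shares 9.20% of the 50-base words in the first 500 bases of its transcripts with other genes, mostly H2 genes, H2-D1 3.87% and H2-T23 14.6%, so the counting could have split or dropped some of their reads, and Tapbp shares 5.39% with Zbtb22, a gene that overlaps it on the same strand. The other 6 class I genes share none. Whether strand was used in counting is not given in the sources used here, and B2m, Tap1, H2-T23, Tap2, Tapbp and Nlrc5 overlap a gene on the other strand, Tap1 the abundant Psmb9. Macrophage markers summed to between 0 and 1899 CPM in Ccr7+ cells and between 8.43 and 2353 CPM in Xcr1+ Ccr7- cells. Fibroblast markers summed to between 0 and 3657 CPM in Ccr7+ cells and between 0 and 727 CPM in Xcr1+ Ccr7- cells. Over all cells they reached 4447 CPM in Irf1_dXCR1 plates and 7002 CPM in Irf1_FF plates. No fit left out cells with fibroblast UMIs. In cells without a UMI of C1qa, C1qb, C1qc or Csf1r, an alternative added after seeing the data, H2-K1, H2-D1 and B2m were called again, at 1.11, 0.68 and 0.84.

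The genotype comparisons asked how the class I genes differ in each state when Irf1 or Ikbkb is targeted. In Ccr7+ cells of Irf1_dXCR1 against Irf1_FF plates (5 against 4), edgeR called 0 of 11786 genes (0%), while 1409 had an unadjusted p under 0.05 and DESeq2 called 125. It called 0 of the 10 class I genes. Of the 10, 8 had a log2 fold change below 0 (2 with upper-quartile factors), against 5544 of all genes tested, and their median was -0.34 against 0 over all genes. H2-K1 alone had an unadjusted p under 0.05, and H2-T23 alone had groups that did not overlap, as 0.95% of all genes did.

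H2-T23 had 774, 10.9, 635, 565 and 646 CPM in Ccr7+ cells of the 5 Irf1_dXCR1 plates, against 1055, 1005, 918 and 1192 CPM in the 4 Irf1_FF plates. Every Irf1_dXCR1 plate lay below every Irf1_FF plate, and replicate 2, with 8 Ccr7+ cells, lay far below the rest (-0.98 ± 0.54, adjusted p = 0.391; -0.66 without that plate). In Xcr1+ Ccr7- cells its levels overlapped, at 724, 719.8 and 662 CPM in 3 Irf1_dXCR1 plates and 632, 790.4, 742 and 584 CPM in 4 Irf1_FF plates. H2-K1 had 2107, 1383, 2369.9, 1776 and 2071 CPM in Ccr7+ cells of Irf1_dXCR1 plates, against 2297, 2717, 2547 and 3089 CPM in Irf1_FF plates. Only the third Irf1_dXCR1 plate reached into the Irf1_FF range (-0.48 ± 0.23, edgeR adjusted p = 0.386). H2-D1 had 3505, 2068, 3014, 3360.1 and 2898 CPM in Irf1_dXCR1 plates, against 3319, 2589, 3303 and 5045 CPM in Irf1_FF plates, which overlap (-0.29 ± 0.22). H2-M3 averaged 298 ± 188 CPM (SD, n = 5) in Irf1_dXCR1 plates and 179 ± 59.1 CPM (n = 4) in Irf1_FF plates (0.71 ± 0.95).

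B2m had 5046, 5873, 4496, 5074 and 4039 CPM in Ccr7+ cells of Irf1_dXCR1 plates, against 3829, 4134, 4507 and 8698 CPM in Irf1_FF plates. Irf1_FF replicate 4 had the highest CPM of the series for B2m, H2-D1 and H2-K1 in these cells. Its 15 Ccr7+ cells held 1251234 UMIs, against 2116688 in the 15 of replicate 2. Per cell it had 726 B2m UMIs, against 583 to 776 in the other Irf1_FF plates. It had 421 H2-D1 UMIs, against 365 to 663.5, and 258 H2-K1 UMIs, against 383 to 459. These counts are not corrected for collisions. Without this plate the fold changes of B2m and H2-D1 were 0.29 and 0.03, against -0.17 and -0.29 with it, so no direction is given for them.

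Of the transporter and loading genes, Tap1 had 658, 744, 783, 432 and 583 CPM in Ccr7+ cells of Irf1_dXCR1 plates, against 1398, 730.4, 1048 and 652 CPM in Irf1_FF plates (-0.58 ± 0.42, adjusted p = 0.628). Tapbp had 463, 24.6, 218, 610.2 and 470.3 CPM, against 565, 912, 699 and 709 CPM in the same groups (-0.97 ± 0.61, adjusted p = 0.474). In both genes 1 or more Irf1_dXCR1 plates lay inside the Irf1_FF range. Tap2 averaged 112 ± 73.0 CPM in Irf1_dXCR1 plates and 153 ± 82.1 CPM in Irf1_FF plates, and Calr 152 ± 98.5 and 184 ± 86.5 CPM. Nlrc5 had 240.0, 529, 221, 121 and 157 CPM in Irf1_dXCR1 plates, against 188, 179.5, 68.8 and 21.6 CPM in Irf1_FF plates (1.15 ± 1.16, adjusted p = 0.925). The same replicate 2 that was lowest for H2-T23 and Tapbp was highest for Nlrc5.

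**Figure D3:**
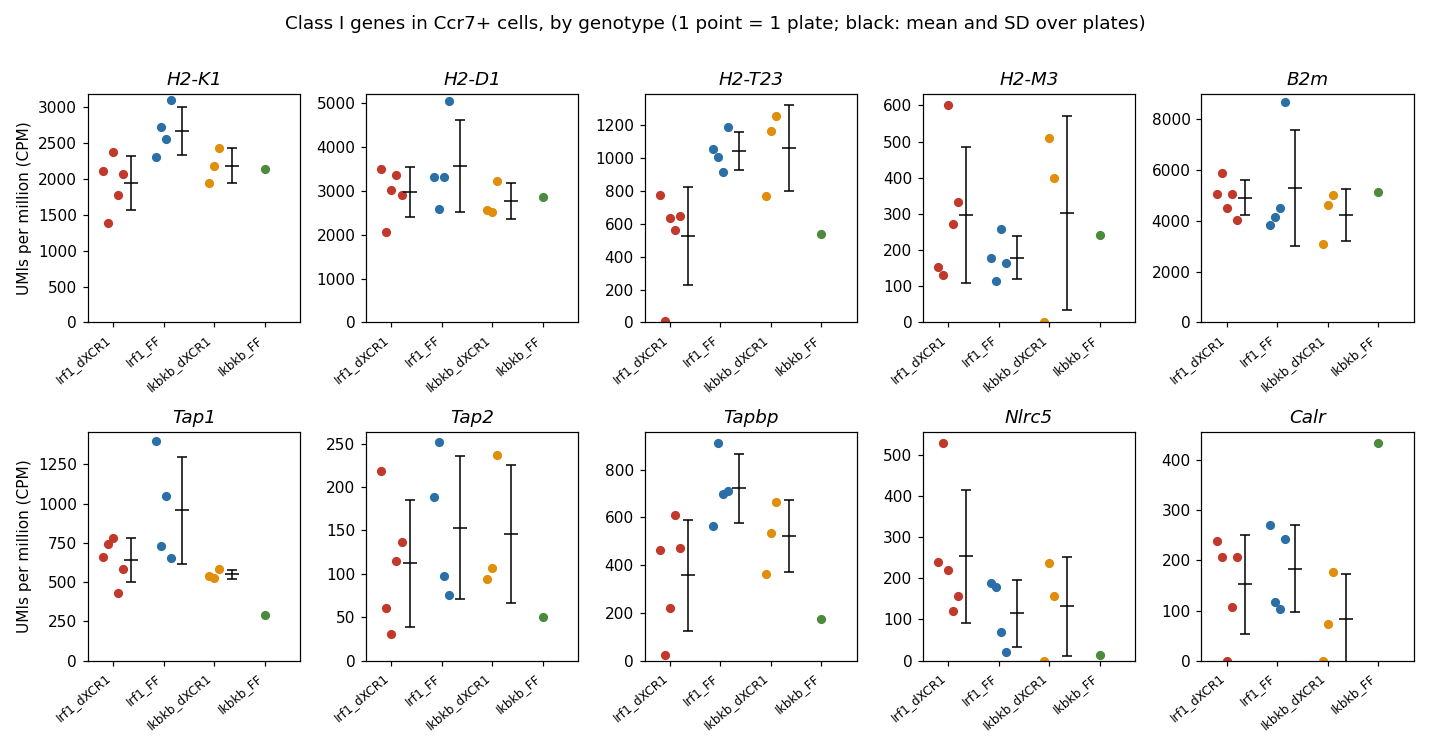
CPM of each class I gene in Ccr7+ cells, with 1 point per plate in the order Irf1_dXCR1, Irf1_FF, Ikbkb_dXCR1 and Ikbkb_FF, and bars for mean and SD over plates where a group has several. H2-T23 is the gene in which all 5 Irf1_dXCR1 plates lie below the 4 Irf1_FF plates, from 10.9 to 774 CPM against 918 to 1192 CPM.

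Summed levels of other transcripts in these Ccr7+ cells stand beside the class I values. The type I interferon-stimulated genes Isg15, Ifit1, Ifit2, Ifit3, Rsad2, Mx1, Oasl1, Cxcl10, Usp18 and Irf7 summed to 2322 to 5501 CPM in Irf1_dXCR1 plates and 1598 to 3455 CPM in Irf1_FF plates. The 9 cDC1 markers summed to 1423 to 2428 CPM in Irf1_dXCR1 plates and 2922 to 4337 CPM in Irf1_FF plates, without overlap, and the 8 macrophage markers to 0 to 1528 CPM and 0.834 to 330 CPM. The 6 fibroblast markers summed to 9.56 to 2061 CPM in Irf1_dXCR1 plates and 2.23 to 3657 CPM in Irf1_FF plates. Their part in the class I values was not tested, except that in cells without macrophage UMIs H2-T23 stood at -1.14 and H2-K1 at -0.40. With upper-quartile factors the median of all genes moved to 0.70, and H2-K1 stood at 0.79 and Tap1 at 1.19, above 0, while H2-T23 at -0.84 and Tapbp at -0.76 were the 2 class I genes below 0.

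In Xcr1+ Ccr7- cells of Irf1_dXCR1 against Irf1_FF plates (3 against 4) edgeR called 0 of 12048 genes (0%; DESeq2 called 107, and 500 had an unadjusted p under 0.05) and 0 of the class I genes, whose median log2 fold change was -0.04 against 0 over all genes. The heavy chains were close: H2-K1 averaged 1168 ± 289 CPM in Irf1_dXCR1 plates (SD, n = 3) and 1262 ± 359.8 CPM in Irf1_FF plates (n = 4; -0.02 ± 0.26), and H2-D1 2084 ± 284 and 2212 ± 279 CPM (-0.05 ± 0.21). B2m averaged 3302 ± 254 CPM in Irf1_dXCR1 plates and 2916 ± 523 CPM in Irf1_FF plates (0.22 ± 0.21). Tap1, the pump subunit, was the single member without overlap, at 596, 637 and 368 CPM in Irf1_dXCR1 plates against 802, 1187, 750.2 and 748 CPM in Irf1_FF plates, as 3.68% of all genes were (-0.63 ± 0.35, adjusted p = 0.685). Calr averaged 179 ± 25.5 CPM in Irf1_dXCR1 plates and 292 ± 94.0 CPM in Irf1_FF plates (-0.68 ± 0.63), and Tapbp 426 ± 57.7 and 515 ± 79.0 CPM (-0.19 ± 0.45). Tap2 averaged 151 ± 68.9 CPM in Irf1_dXCR1 plates and 161 ± 95.4 CPM in Irf1_FF plates, H2-M3 363 ± 107 and 320.4 ± 159 CPM, and Nlrc5 62.9 ± 3.61 and 66.6 ± 45.2 CPM. Interferon-stimulated genes summed to 3434 to 3782 CPM in these Irf1_dXCR1 plates and 1352 to 2389 CPM in Irf1_FF plates, and their part was not tested.

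None of the other pathway genes, regulators and chaperones listed was called in any Irf1 comparison. In Ccr7+ cells the most abundant of them stood at 0.05 ± 0.24 for Psme2, 0.04 ± 0.25 for the immunoproteasome subunit Psmb8, -0.62 ± 0.33 for Irf8, the transcription factor that cDC1 depend on, and -0.28 ± 0.43 for the chaperone BiP (Hspa5), as log2 fold changes of Irf1_dXCR1 over Irf1_FF.

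**Figure D4:**
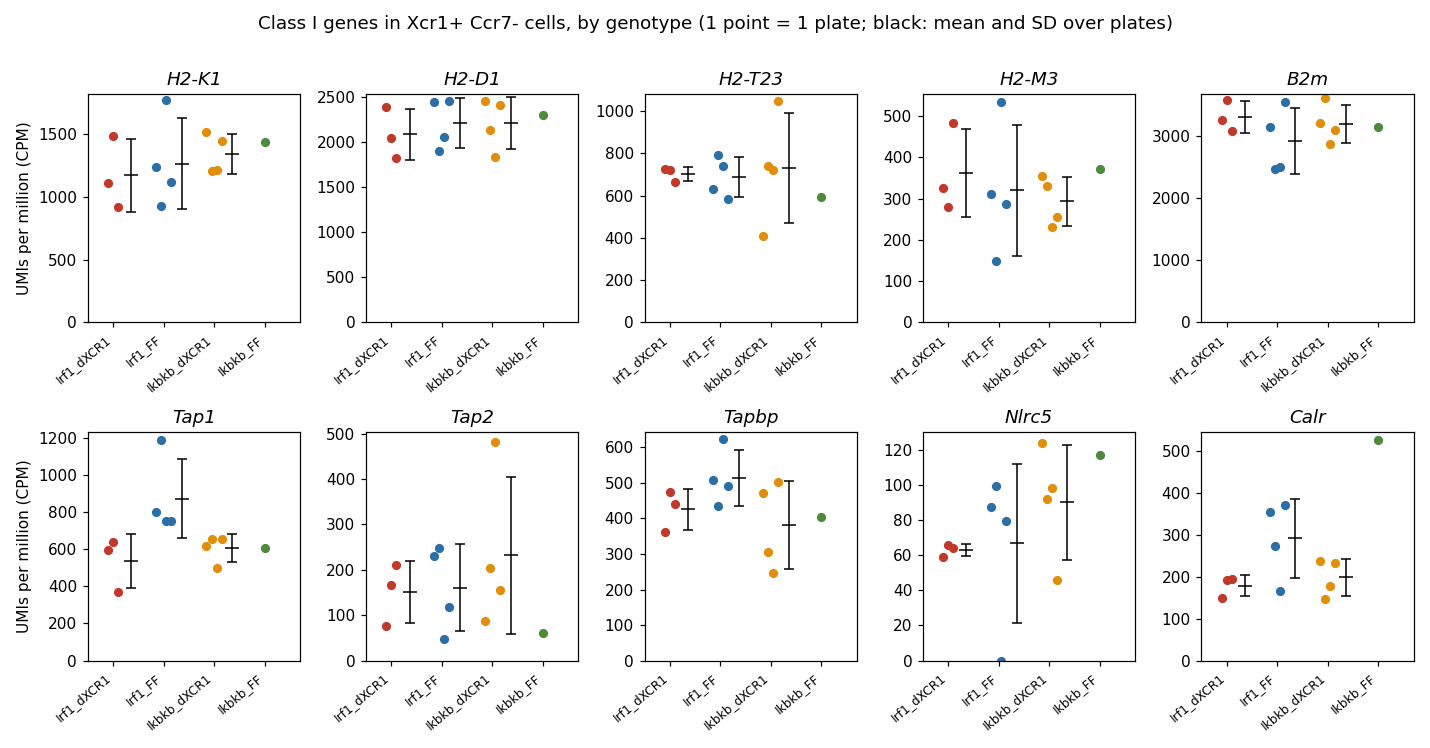
CPM of each class I gene in Xcr1+ Ccr7- cells, with 1 point per plate in the order Irf1_dXCR1, Irf1_FF, Ikbkb_dXCR1 and Ikbkb_FF, and bars for mean and SD over plates where a group has several. The Irf1 groups overlap in every gene except Tap1, where 368 to 637 CPM in Irf1_dXCR1 plates stand against 748 to 1187 CPM in Irf1_FF plates.

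Over all cells, which include the Xcr1+ Ccr7- cells, Tap1 was the single class I gene whose Irf1 groups did not overlap. It was also the single one with an unadjusted p under 0.05 there. It stood at 629.9, 369, 498, 537 and 511 CPM in the 5 Irf1_dXCR1 plates, against 724, 711, 906 and 698 CPM in the 4 Irf1_FF plates (-0.53 ± 0.19; edgeR adjusted p = 0.519). All Irf1_dXCR1 plates were below all Irf1_FF plates, as in 1.22% of the 16203 genes tested, of which edgeR called 0 (0%; DESeq2 called 100, and 1272 had an unadjusted p under 0.05). Psmb9, the immunoproteasome gene that overlaps Tap1 on the other strand, had 1088, 787, 1412, 1422 and 1022.9 CPM in the Irf1_dXCR1 plates and 1091, 1169, 1408 and 1533 CPM in the Irf1_FF plates, which overlap (-0.15 ± 0.20). The fold change of Tap1 was below 0 under every alternative run, from -0.73 to -0.45, and with each plate left out, from -0.64 to -0.42, and was called in none. In the cells with neither transcript the Tap1 levels of the Irf1 groups overlapped, as they did in Ccr7+ cells. They were 627.5, 278, 485, 501.5 and 544 CPM in Irf1_dXCR1 plates and 477.5, 339, 857 and 626.7 CPM in Irf1_FF plates. H2-K1 over all cells averaged 1621 ± 264 CPM in Irf1_dXCR1 plates and 2005 ± 170.3 CPM in Irf1_FF plates (-0.26 ± 0.15, adjusted p = 0.539). Whether the Irf1 contrast differs between Ccr7+ and Xcr1+ Ccr7- cells was tested as an interaction in 3 Irf1_dXCR1 and 4 Irf1_FF plates. edgeR called 0 of 13508 genes (0%; DESeq2 called 113, and 91 had an unadjusted p under 0.05). The difference was -0.65 ± 0.53 for H2-T23, -0.27 ± 0.33 for H2-K1, 0.04 ± 0.61 for Tap1 and -0.23 ± 0.21 for B2m, beside a median of 0.48 over all genes.

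**Figure D5:**
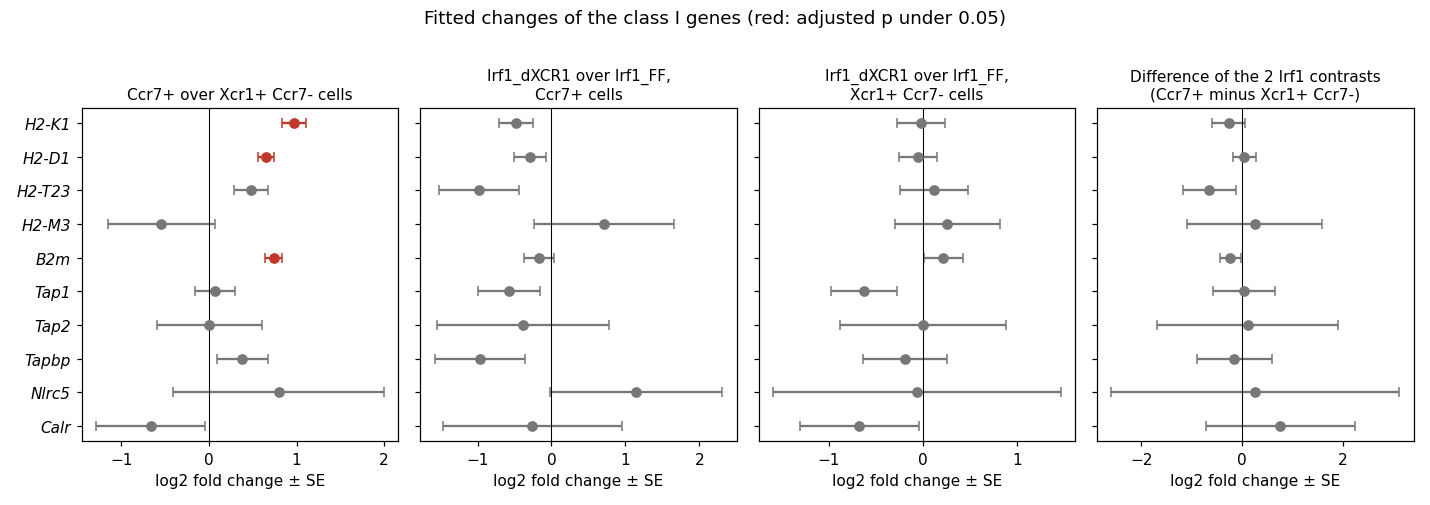
Log2 fold change ± SE of the 10 class I genes in 4 panels: Ccr7+ over Xcr1+ Ccr7- cells, Irf1_dXCR1 over Irf1_FF in each of these states, and the difference between those 2 contrasts. H2-K1, H2-D1 and B2m in the first panel are the only values with an adjusted p under 0.05 (red).

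The Ikbkb comparison has 1 control plate, so the fit takes its spread from the remaining groups. In Ccr7+ cells of 3 Ikbkb_dXCR1 plates against the Ikbkb_FF plate, which has 8 such cells, edgeR called 17 of 11786 genes (0.144%; 1181 by DESeq2) and 0 of the class I genes. The median of all genes was 0.90 there and that of the 10 class I genes 0.84. H2-K1 had 1945, 2181 and 2425 CPM in Ikbkb_dXCR1 plates and 2141 CPM in the Ikbkb_FF plate, H2-D1 2549, 2519.5 and 3228 CPM and 2847 CPM, so the control lay inside both ranges. B2m had 3082, 4630.5 and 5018 CPM in Ikbkb_dXCR1 plates and 5118 CPM in the Ikbkb_FF plate. H2-T23 had 767, 1165 and 1257 CPM and 540.5 CPM, Tap1 536, 529 and 584 CPM and 289 CPM, and Tapbp 363, 536 and 667 CPM and 175 CPM in the same order. In 6 of the 10 genes the control plate lay outside the Ikbkb_dXCR1 range, as in 27% of all genes. A single control plate often falls outside the range of 3 plates by chance. Genes tied at 0 cannot count as outside, which can lower the share over all genes, so the 6 are not read as a result.

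Calr, the chaperone that binds newly made glycoproteins, had its Ikbkb_FF plate above every Ikbkb_dXCR1 plate in Ccr7+ cells, in Xcr1+ Ccr7- cells and over all cells, but not in the cells with neither transcript. In those it had 591, 392.1, 255 and 137 CPM in Ikbkb_dXCR1 plates and 177 CPM in the Ikbkb_FF plate, which was below 3 of the 4. In Ccr7+ cells it had 0, 73.6 and 178 CPM in Ikbkb_dXCR1 plates and 434 CPM in the Ikbkb_FF plate (-2.06 ± 1.92), and in Xcr1+ Ccr7- cells 239, 146, 178 and 233 CPM and 527 CPM (-1.59 ± 0.82). Over all cells it had 294, 211, 174 and 189.7 CPM in Ikbkb_dXCR1 plates and 448 CPM in the Ikbkb_FF plate (-1.04 ± 0.52; edgeR adjusted p of 0.837, 1 and 1 in the 3 sets tested). These sets share the 1 control plate, and all cells contain both states, so they are not separate observations. The 9 other chaperones had fold changes below 0 in 9 of 9 genes in Xcr1+ Ccr7- cells, against 5042 of 12048 genes tested (median -0.89, against 0). Over all cells 9 of 9 were below 0, against 5152 of 16203 genes (median -0.51, against 0). In Ccr7+ cells 5 of the 9 chaperones were, against 2386 of 11786 genes (median -0.05, against 0.90). None of the 9 chaperones was called in these sets. In Xcr1+ Ccr7- cells of 4 Ikbkb_dXCR1 plates and over all cells edgeR called 0 genes of 12048 and 0 of 16203 (0% each; DESeq2 called 528 and 1177, and 474 and 707 had an unadjusted p under 0.05). In 3 of the 10 class I genes the control lay outside the Ikbkb_dXCR1 range in each of these sets, against 23.2% and 23.4% of all genes. Ties at 0 and the single control plate limit these shares as they do in Ccr7+ cells. H2-K1 averaged 1339.7 ± 158 CPM in Xcr1+ Ccr7- cells of Ikbkb_dXCR1 plates (SD, n = 4) and had 1434 CPM in the Ikbkb_FF plate, H2-D1 2207 ± 287 and 2304 CPM, and B2m 3191 ± 311 and 3146 CPM. With only the Ikbkb_dXCR1 mice of the control's age, Calr stood at -1.69 in Xcr1+ Ccr7- cells and -0.90 over all cells. In Ccr7+ cells that left 1 Ikbkb_dXCR1 plate, where Calr is at 0, and no fold is given.

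Cells of 1 plate also differed among themselves. In plates with at least 10 cells of a state, the share of a cell's UMIs from H2-K1 and from H2-D1 had a median Spearman correlation of 0.381 over 8 plates in Ccr7+ cells, above 0 in 7 of them, and of 0.497 over 7 plates in Xcr1+ Ccr7- cells, above 0 in 6. It was the highest median of any pair of the 10 genes in either state, though shares that are divided by the same total are not independent. H2-K1 and H2-D1 also share 5′ sequence with each other, and the part of this in their correlation was not tested. B2m ran against Calr in Ccr7+ cells, with a median of -0.384 and 0 of 8 plates above 0, and against Tap2 with -0.334 and 0 of 8. In these cells 85 of 169 non-zero B2m counts were at 768 UMIs or more, so the UMI ceiling compresses the B2m share. The part of the ceiling and of the shared total in these medians was not tested. In Xcr1+ Ccr7- cells the B2m to Calr median was -0.0735. H2-M3 went with Calr (0.461) and with Tapbp (0.371) in Xcr1+ Ccr7- cells, above 0 in 7 of 7 plates each. Over the 14 plates, the genes outside the set whose all-cell level ranked most like the summed class I level, among 2213 with at least 100 CPM, were Nrros (Spearman rho 0.807), Npc2 (0.793), Atp6v0c (0.789), Ifnar1 (0.785) and Tcirg1 (0.771). These correlations are descriptions and carry no test.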

How the data were processed

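UMI counts per gene and cell were deposited by the authors with an annotation of each cell. Per the labels' protocols, cells were index-sorted into 96-well plates, each transcript was tagged at its 5′ end by a template-switching oligonucleotide with a UMI of 5 bases, and ERCC spike-in RNAs were added. The submitters' processing notes name bcl2fastq, STAR 2.5.3a, HTSeq 0.9.1 and GRCm38, and the strand setting is not given in the sources used here. The deposited annotation also holds the share of mitochondrial and spike-in UMIs, each a fraction, and a fluorescence score (arcsinh scale) for the 458 cells with recorded staining; the authors' score entered no comparison. The genotype in the annotation equalled the label in 555 of 555 cells.

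Counts were summed per plate and state where a plate had at least 5 cells of it, with no cell left out. edgeR 4.0.16 (R 4.3.3) fitted them with TMM factors, filterByExpr and the quasi-likelihood test, the 4 genotype groups sharing 1 spread, and p-values were adjusted by Benjamini-Hochberg over all genes tested at 0.05. The state comparison had the plate as block, since both states come from the same tumour. Levels are plain CPM. Alternatives used DESeq2 1.42.0, limma 3.58.1 on log2(CPM + 10) per cell, other scalings, filters and cell thresholds, and each plate left out. Intervals are exact binomial (95%), from scipy 1.17.1, and cover counting error only. The fits of the Irf1 contrast in Ccr7+ cells, the state comparison and the interaction were run on simulated counts. Only abundant genes were changed there, and by more than most changes described here. That run therefore does not show the power to find small changes, and it held no Ikbkb contrast. Collisions of UMIs lower high counts, mainly those of B2m, H2-D1 and H2-K1.

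The genes named are the 10 class I genes, the genes of 3 further lists that passed (at most 6 per list; otherwise the 2 most abundant), the targeted genes, and the 5 genes ranked most like the summed class I level. The class I genes and lists were chosen with earlier results of these data known, and the 2 alternatives named as added were chosen after seeing the data.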

Additional observations from a re-analysis of the deposited data

Results flagged for a closer look

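Of 70 sets of 4 or 5 plates of 1 group, gene and set of cells, 7 had a plate whose distance from its nearest neighbour passed Dixon's 95% critical value, where chance gives about 3.5. In Ccr7+ cells, H2-T23 had 10.9 CPM in Irf1_dXCR1 replicate 2, against 565 to 774 CPM in the other 4 plates. B2m had 8698 CPM in Ccr7+ cells of Irf1_FF replicate 4, against 3829 to 4507 CPM in the rest of that group. Tap1 had 1187 CPM in Xcr1+ Ccr7- cells of Irf1_FF replicate 2, against 748 to 802 CPM. Over all cells of Irf1_FF replicate 3, H2-M3 had 383 CPM, against 216 to 240.3 CPM in the other 3 plates, and Tap1 had 906 CPM, against 698 to 724 CPM. Over all cells of Ikbkb_dXCR1 replicate 1, B2m had 3222 CPM, against 3943 to 4078 CPM, and Tap2 had 106 CPM, against 185 to 199 CPM.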

How the results depend on the processing

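In the state comparison 3 of the 10 class I genes were called under the fit reported and in all 11 fits that left out 1 plate (3 to 3). Scaled to spike-in UMIs, 0 were called. Without the plate as replicate block, 3 were called again, H2-K1 at 0.97, H2-D1 at 0.67 and B2m at 0.79. Single calls were lost with upper-quartile factors for H2-D1 (adjusted p = 0.0645 by edgeR), with at least 10 cells per plate for H2-K1 (0.0587), and with limma-trend for H2-K1 (0.115) and H2-D1 (0.512). The cause was not tested. Genes called in all numbered 224 with edgeR, 1861 with DESeq2, 1206 with limma-trend, 317 with spike-in scaling and 158 to 221 with a plate left out. In each genotype comparison and in the interaction, 0 class I genes were called under every alternative and with each plate left out (0 to 0). Genes called in Ccr7+ cells of the Ikbkb comparison numbered 17 with edgeR, 1181 with DESeq2 and 208 with limma-trend. For that set at least 10 cells per plate could not be fitted, and the 1 Ikbkb_FF plate could not be left out. No fold change that was called changed sign. Tap2, Nlrc5, Calr and H2-M3 had the largest SEs of the class I genes in the state comparison.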
